A study of Homo sapiens with 38 samples.

Results

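The genes described here are the 10 cyclins, kinases and phosphatases that drive the cell cycle after the G1 restriction point: CCNE1, CCNE2, CDK2, CDC25A, CCNA2, CCNB1, CCNB2, CDK1, CDC25B and CDC25C. They were taken by name from the gene count tables, which list 50652 genes for BE2C cells and 50778 for the other lines. The 4 G1/S members are the E cyclins CCNE1 and CCNE2, the kinase they activate, CDK2, and CDC25A, a phosphatase that removes inhibitory phosphates from CDK2 and CDK1. CCNA2 (cyclin A2) partners CDK2 in S phase and CDK1 in G2 and is kept apart. The 5 G2/M members are the B cyclins CCNB1 and CCNB2, the mitotic kinase CDK1, and the phosphatases CDC25B and CDC25C, which activate it.

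As background, CDK4 and CDK6 with the D cyclins phosphorylate pRB and so free the E2F transcription factors, which switch on E cyclins, cyclin A2 and much of the replication machinery. The G2/M genes peak later, when MuvB complexes with B-MYB and FOXM1 replace the repressive DREAM complex at their promoters. Palbociclib inhibits CDK4 and CDK6. GSK-J4 is converted in cells to GSK-J1, which inhibits the histone H3 lysine 27 demethylases KDM6A and KDM6B. In the study's assay GSK-J1 also had some effect on KDM5A. The amount of a cell-cycle RNA in a bulk culture depends on the share of cells in each phase and on the RNA per cell, and these cannot be told apart here.

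Bulk RNA sequencing covered 5 human neuroblastoma cell lines in 27 libraries. BE2C cells, a MYCN-amplified line, were collected at 0, 24 or 48 h with GSK-J4 at 2.5 uM, with 2 libraries per time. No untreated culture of 24 or 48 h is labelled, so GSK-J4 cannot be told apart from time in culture. BE2C cells were also transfected for 72 h with a control siRNA (siCtrl, 2 libraries) or with the KDM6B siRNAs N1, N2 and N33, of which each was counted as 1 library. CHLA15 and CHLA20 cells received palbociclib at 300 nM, and NB1643 and NB1691 cells at 3 uM, for 72 h, with 2 libraries per line and arm, so the dose cannot be told apart from the pair of lines. No time is labelled for the controls of these lines, so whether they match the palbociclib libraries in time in culture is not known. Nothing in the labels says that libraries of 1 arm came from separate cultures, and p-values measure only the spread between these libraries. Counts on genes were 36186567 to 93011010 per library, levels are CPM, read counts scaled to library size by TMM, and a gene is called changed at an adjusted p under 0.05 in edgeR's quasi-likelihood test across all tested genes. All 10 members passed the filter on low counts in each of the 3 experiments, and the smallest count of a member was 22 (CDC25C in 1 NB1691 palbociclib library).

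Some libraries went against their labels or stood apart. KDM6B was at 6.47 and 8.76 CPM in the siCtrl libraries and at 8.99, 7.11 and 8.26 CPM with N1, N2 and N33, so its RNA was not lower in the libraries labelled siKDM6B. N33 stood apart from N1 and N2, with MYCN at 466 CPM against 1742 and 1736. NB1691 stood apart from the other palbociclib lines in both arms, though not in every marker. The adrenergic marker HAND2 was at 74.5 to 86.6 CPM on library totals in NB1691, against 386.5 to 991.8 CPM in CHLA15, CHLA20 and NB1643. GATA3, another adrenergic marker, was at 26.8 to 30.2 CPM in NB1691, against 267.4 to 399.4 CPM in these 3 lines. In BE2C, HAND2 was at 225.2 to 530 CPM and GATA3 at 49.9 to 82.7 CPM. DBH, also an adrenergic marker, was at 10.4 to 14.2 CPM in NB1691 and 14.1 to 60.1 CPM in NB1643, which overlap. In BE2C it was at 10.5 to 252.4 CPM. Of 7 markers of other cell types, COL1A1 was at 11840 to 15330 CPM in NB1691 and at no more than 116 CPM elsewhere, COL3A1 was at 27.1 to 35.7 CPM there and at 33.4 to 53.2 CPM in the CHLA lines, the endothelial gene PECAM1 was at 1.81 to 3.16 CPM there, and the Schwann cell gene SOX10 was at or near 0 in all lines. MYCN was at 86.1 to 106 CPM in NB1691, at 2166 to 3257 CPM in NB1643 and at 1.93 to 3.39 CPM in the 2 CHLA lines. The extraction label names xenograft tissue whereas the study's methods name cells. The part of these differences in the results below was not tested. The siKDM6B calls of members and the siRNA balance are also given without N33. The interaction of palbociclib and line and the untreated levels are also given without NB1691. Other results, among them the list medians and the correlations, include these libraries.

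Per kilobase of annotated exon, the cyclin B1 gene was the most abundant member in every untreated line. In BE2C cells at 0 h, CCNB1 stood at 155 ± 2.38 CPM per kilobase (SD, n = 2), followed by CCNA2 at 75.3 ± 1.61, CCNB2 at 56.0 ± 0.0136 and CDK1 at 45.2 ± 1.09. CCNE1 was the least abundant of the 10 at 4.98 ± 0.277, below CDC25C at 9.77 ± 0.389 and CCNE2 at 10.3 ± 0.104. The last 2 were close to each other relative to their spread. In CHLA15 controls CCNB1 stood at 66.4 ± 0.145 CPM per kilobase and the lowest member was CCNE2 at 4.15 ± 0.00515. In NB1691 controls CCNB1 stood at 55.7 ± 1.23, and CCNE2 (2.30 ± 0.0814) and CDC25C (2.20 ± 0.0796) were lowest and did not separate. BE2C and the palbociclib lines were scaled separately, so levels are ordered within a line and not tested between these experiments.

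CCNE1 lies at chr19:30302898-30315219 and CCNB1 at chr5:68462962-68474072, both on the plus strand of GRCh37. CCNA2 occupies chr4:122737599-122745038 on the minus strand, CCNB2 chr15:59397325-59417244 and CDK1 chr10:62538089-62554610, both on the plus strand. Of the other members, CDK2 (chr12:56360565-56366573) and CDC25B (chr20:3767419-3786768) are on the plus strand, and CDC25A (chr3:48198636-48229907) and CDC25C (chr5:137620958-137674044) on the minus strand. CCNE2 shares 37.1% of its exonic bases with INTS8 on the opposite strand, and CDK2 14.5% with a long noncoding RNA gene. For CCNA2 the share is 9.24% (with EXOSC9), and for CDC25C 8.80% (with FAM53C). The strand setting of the counting is not given in the sources used here, and without strand reads from such overlaps cannot be told apart.

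Promoter sequences show where the members differ in the letters known from cell-cycle promoters. A RefSeq table on GRCh38.p14 held 15 windows of 300 bases, from 250 before to 50 after a start, for 8 of the members. CCNE2 and CDK2 were not in it. On both strands, 3 kinds of motif were searched. A cell cycle homology region was counted where the window held TTTGAA in either direction. The rarer spelling TTCGAA, which reads the same on both strands and so counts on each, was included. The spelling CTTGAA known from the cyclin A2 promoter was included as well. A CCAAT box was counted as these letters, and an E2F site as GGCGGGAA or as GGCGCGAA. Over all 35116 windows in the table, 24.9% held a homology region in any of the forms, 34.6% a CCAAT box and 4.06% an E2F form. A CCAAT box lay in a window of 7 members, all but CCNE1. A homology region lay in a window of 5 members, CCNA2, CCNB2, CDK1, CDC25B and CDC25C. An E2F site in these forms lay only in 1 window of CDC25B. Other spellings of an E2F site were not searched, so a window without a match may still hold one. The shares above are of single windows. CDK1, CDC25B and CDC25C had more than 1 window each, so counts of members cannot be set against these shares. The 110 bases before the start are printed for the 5 members with 1 window each, because they span G1/S, S/G2 and G2/M genes. Capitals mark the matches, and ATTGG is a CCAAT box read on the other strand.
CCNE1 (chr19:29811881-29811990, plus): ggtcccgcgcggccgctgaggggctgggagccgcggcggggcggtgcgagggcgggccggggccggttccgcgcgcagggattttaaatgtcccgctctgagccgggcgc
CDC25A (chr3:48188418-48188527, minus): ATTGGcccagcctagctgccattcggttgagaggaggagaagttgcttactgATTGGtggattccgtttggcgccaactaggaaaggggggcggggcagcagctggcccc
CCNA2 (chr4:121823884-121823993, minus): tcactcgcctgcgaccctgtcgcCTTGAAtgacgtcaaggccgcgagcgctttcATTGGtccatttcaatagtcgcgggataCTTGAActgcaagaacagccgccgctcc
CCNB1 (chr5:69167040-69167149, plus): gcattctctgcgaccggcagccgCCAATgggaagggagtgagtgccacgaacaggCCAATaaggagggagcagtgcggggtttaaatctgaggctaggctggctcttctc
CCNB2 (chr15:59105036-59105145, plus): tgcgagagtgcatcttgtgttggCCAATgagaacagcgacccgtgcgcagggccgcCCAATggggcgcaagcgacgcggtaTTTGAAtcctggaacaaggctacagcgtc
These matches are letters only and say nothing about which factor binds. In CCNB2 the homology region spanned positions -29 to -24 from the start, with CCAAT boxes beginning at -54 and -87. In CCNA2 a homology region spanned -28 to -23 with a CCAAT box at -56 to -52. CCNB1 had CCAAT boxes at -87 and -55 and no homology region in these forms.

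The cyclin A and B genes of BE2C cells were lower after 24 h with GSK-J4 than at 0 h, and cyclin E2 went the other way. CCNB1 was at 380 and 372 CPM at 0 h, at 175 and 180 CPM at 24 h and at 107 and 109 CPM at 48 h. The 3 times did not overlap, and the 24 h level was 47.2% of that at 0 h. The log2 fold change was -1.08 ± 0.0296 (SE) at 24 h (edgeR adjusted p = 3.02e-32) and -1.80 ± 0.0305 at 48 h (edgeR adjusted p = 4.19e-41). CCNB2 was at 154 CPM in both 0 h libraries, at 103 and 101 CPM at 24 h and at 64.3 and 65.6 CPM at 48 h, a log2 fold change of -0.60 ± 0.0329 and then -1.25 ± 0.0338 against 0 h. CCNA2 was at 210 and 204 CPM, then at 143 and 144, then at 96.2 and 90.7. Its log2 fold changes of -0.53 ± 0.0321 and -1.15 ± 0.0328 were close to those of CCNB2. Of the members, 6 fell and 2 rose at 24 h, where 28% of all 17734 tested genes were called lower and 27.3% higher.

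**Figure D1:**
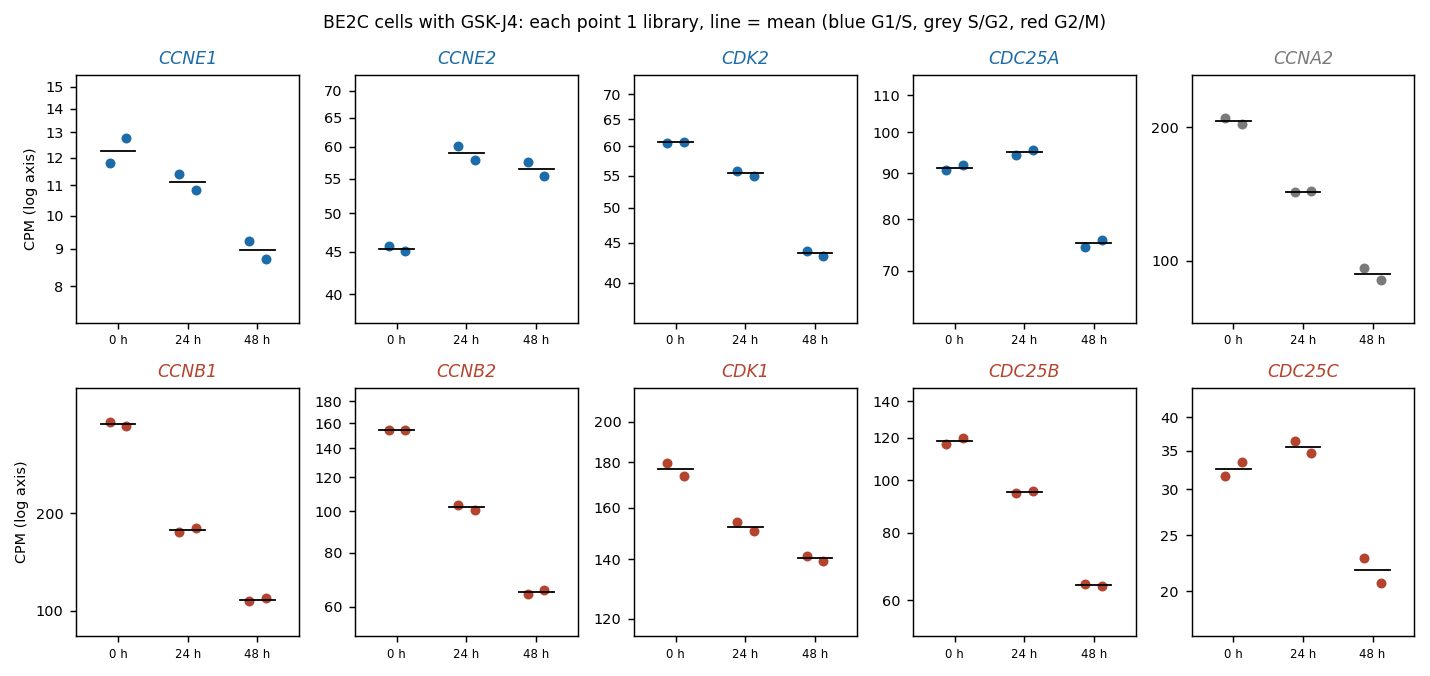
Level of each member in BE2C cells at 0, 24 and 48 h with GSK-J4, in CPM on log axes whose range differs between panels. Each point is 1 library and each line the mean of 2. CCNB1 drops from 372 to 380 CPM at 0 h to 107 to 109 CPM at 48 h, while CCNE2 rises from 45.1 to 45.7 CPM to 55.4 to 57.5 CPM.

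The kinase and phosphatases of G2/M moved less than their cyclins. CDK1 was at 180 and 174 CPM at 0 h, at 154 and 150 CPM at 24 h and at 141 and 139 CPM at 48 h, so that 79.4% of its level was left at 48 h, against 28.7% for CCNB1. Its log2 fold change at 48 h was -0.33 ± 0.0313 (95% interval -0.40 to -0.27), and the interval of CCNB1 was -1.86 to -1.74. CDC25B was at 117 and 120 CPM, then at 94.8 and 95.4, then at 64.4 and 63.8, and fell at both times. CDC25C was at 31.6 and 33.4 CPM at 0 h and at 36.4 and 34.6 CPM at 24 h, a rise of 0.13 ± 0.0536 on the log2 scale (edgeR adjusted p = 0.0392) that DESeq2 did not call (DESeq2 adjusted p = 0.204, range over the alternatives 0.00467 to 0.907). At 48 h it had fallen to 22.9 and 20.7 CPM, below both earlier times.

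Among the G1/S members the E cyclins diverged. CCNE2 was at 45.7 and 45.1 CPM at 0 h, at 60.1 and 57.9 CPM at 24 h and at 57.5 and 55.4 CPM at 48 h. Both later times lay above 0 h, with a log2 fold change of 0.38 ± 0.0428 at 24 h (edgeR adjusted p = 1.84e-10) and 0.32 ± 0.0423 at 48 h (edgeR adjusted p = 6.48e-09). CCNE1 was at 11.8 and 12.7 CPM, then at 11.4 and 10.8, then at 9.22 and 8.72. Its value at 24 h, -0.14 ± 0.0804 on the log2 scale, was not called (edgeR adjusted p = 0.134), and at 48 h it fell by 0.45 ± 0.0809. CDC25A was at 90.7 and 91.9 CPM at 0 h and at 94.4 and 95.5 CPM at 24 h, a log2 difference of 0.06 ± 0.0351 that was not called (edgeR adjusted p = 0.172). It was called under library totals, upper quartiles, a filter of 10 counts in every library and the deposited files taken singly, with adjusted p between 0.0105 and 0.0488. At 48 h it stood at 74.4 and 75.9 CPM, below both earlier times. CDK2 was at 60.5 and 60.8 CPM, then at 55.7 and 55.0, then at 43.95 and 43.3, lower at each step. Its call at 24 h was lost under upper quartiles (-0.09 in log2 units, edgeR adjusted p = 0.0734, against -0.13).

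At 48 h all 10 members were called against 0 h, 9 lower and CCNE2 higher, where 34.4% of all genes were called lower and 37.1% higher. Between 24 and 48 h, 9 members fell and none rose (28% of all genes were called lower and 25.9% higher). CDK1 lost its call in that step under upper quartiles (-0.06 in log2 units, edgeR adjusted p = 0.125, against -0.12). CCNE2 was the member not called in that step, with a log2 difference of -0.06 ± 0.0394 (edgeR adjusted p = 0.184). CDC25C, at -0.70 ± 0.0530, and CCNB1, at -0.72 ± 0.0309, had the largest falls of the step. When the siRNA libraries, which vary more, were put in the same fit, 0, 2 and 0 members were called at 24 h, at 48 h and between the times, against 2%, 18.2% and 0.208% of all genes. The 24 h and 48 h comparisons share the 0 h libraries, and the 2 steps share the 24 h libraries.

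In the libraries labelled siKDM6B, no member was called against siCtrl, and no gene of 17472 tested was (0% higher and 0% lower). DESeq2 called 164 genes there and no member, and limma-voom called 0. At an unadjusted p under 0.05 edgeR counted 1615 genes, among them CCNE2, CDK2 and CDC25A. CDC25A was at 93.3 and 93.0 CPM in the siCtrl libraries and at 57.1, 50.4 and 42.6 CPM with N1, N2 and N33. The 3 siKDM6B libraries lay below both controls, at 53.7% of the control mean, which is -0.90 ± 0.218 in log2 units (edgeR adjusted p = 0.520). CDK2 was at 62.1 and 63.4 CPM against 40.6, 26.2 and 20.5 (-1.11 ± 0.318 in log2 units, edgeR adjusted p = 0.520). CCNE2 was at 43.6 and 39.8 CPM against 27.6, 10.5 and 7.36 (-1.46 ± 0.545 in log2 units, edgeR adjusted p = 0.523), opposite in sign to its change with GSK-J4. These 3 genes had all siKDM6B libraries below the controls, as did CCNA2, CCNB1, CCNB2, CDC25B and CDC25C, where 16.8% of all tested genes did.

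The 3 siRNAs differed among themselves, and N33 had the lowest level of 9 of the 10 members, all but CCNE1. How many of all genes had their lowest level with N33 was not counted. For CCNB1 the siCtrl libraries stood at 392 and 368 CPM, N1 and N2 at 260 and 237, and N33 at 104. CCNA2 was at 264 and 243 CPM, then at 207 and 165, and at 57.0 CPM with N33. For CDK1 the siCtrl libraries stood at 139 and 127 CPM, N1 at 198, N2 at 134 and N33 at 48.4, so its siKDM6B libraries lay on both sides of the controls. Without N33 the log2 fold change of CDK1 went from -0.07 to 0.32, and that of CCNB1 from -0.92 to -0.61. For CCNE1 the siCtrl libraries stood at 9.80 and 7.78 CPM, N1 at 12.7, N2 at 7.01 and N33 at 15.9, which overlap. No member was called without N33 either, and the smallest adjusted p of a member was then 0.182, that of CDC25A.

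The 4 palbociclib lines address how CDK4/6 inhibition moves these genes, and the size of the change differed between them. In NB1643 and NB1691 cells the cyclin A2, cyclin B, CDK1 and cyclin E2 genes dropped to between 5.56% and 14.7% of control, whereas in CHLA15 and CHLA20 cells the lowest of any member was 59.6%. CCNE1 was the member that rose in the CHLA lines, and it was not called in the NB lines. In CHLA15 cells 1 member rose and 6 fell (14.2% of all 22133 tested genes were called higher and 15.6% lower). Leaving out any 1 of its libraries left fewer members called, and also fewer of all genes. CDC25C was called in none of these fits. In CHLA20 cells 1 rose and 8 fell (13.7% higher and 15.9% lower over all genes). In NB1643 cells 9 fell and none rose (20.3% higher and 19.7% lower), and in NB1691 cells 9 fell and none rose (17.4% higher and 15.5% lower).

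**Figure D2:**
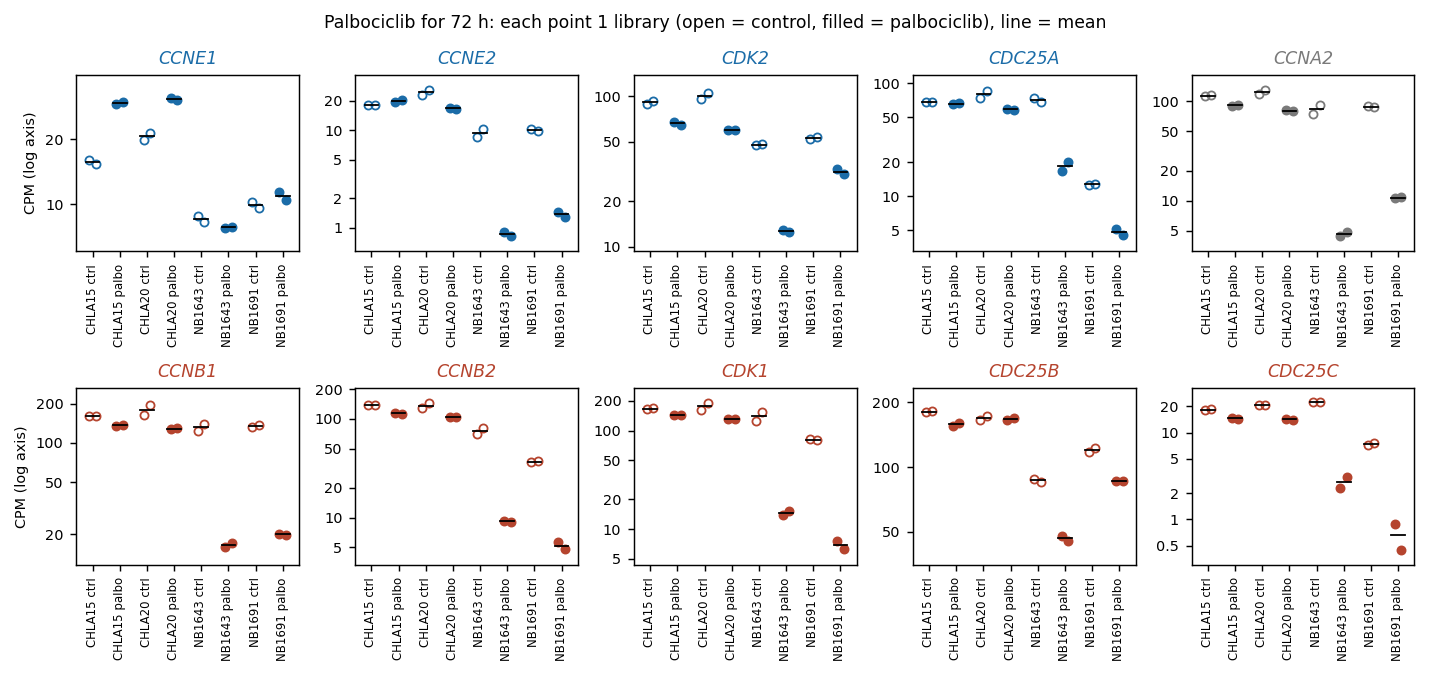
Level of each member in control (open) and palbociclib (filled) libraries of 4 lines, in CPM on log axes whose range differs between panels. Each point is 1 library and each line the mean of 2. CCNA2 drops to 4.42 and 4.82 CPM in NB1643 and to 10.7 and 10.8 CPM in NB1691, and CCNE1 is higher with palbociclib in CHLA15 and CHLA20.

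The E cyclin genes separated again. CCNE1 was at 16.01 and 15.4 CPM in CHLA15 controls and at 29.0 and 29.6 CPM with palbociclib (0.90 ± 0.0664 in log2 units, edgeR adjusted p = 1.18e-08). In CHLA20 it went from 19.9 and 21.4 CPM to 30.9 and 30.4 CPM (0.57 ± 0.0654 in log2 units, edgeR adjusted p = 1.97e-06). In NB1643 it was at 8.83 and 8.27 CPM and then at 7.81 and 7.87 CPM, a log2 difference of -0.13 with a 95% interval of -0.29 to 0.03 that was not called. In NB1691 it was at 10.3 and 9.63 CPM and then at 11.4 and 10.5 CPM, a log2 difference of 0.14 with a 95% interval of -0.02 to 0.29, not called either.

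CCNE2 fell from 8.51 and 10.4 CPM to 0.905 and 0.820 CPM in NB1643 (-3.43 ± 0.136 in log2 units, edgeR adjusted p = 2.79e-13). In NB1691 it fell from 10.4 and 9.88 CPM to 1.46 and 1.31 CPM, a log2 fold change of -2.86 ± 0.123. The treated libraries held 40 to 88 counts of CCNE2. The fall in CHLA20 was smaller, from 23.0 and 26.2 CPM to 17.1 and 16.4 CPM (log2 fold change -0.55 ± 0.0836). In CHLA15, where the controls were both at 18.2 CPM and the treated libraries at 19.5 and 20.2 CPM, it was not called (edgeR adjusted p = 0.304). The 2 E cyclins, which activate the same kinase, thus had log2 fold changes of opposite sign in CHLA20 and of 0.14 and -2.86 in NB1691.

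CDK2 fell in all 4 lines. In NB1643 it went from 47.1 and 48.4 CPM to 12.9 and 12.4 CPM, a log2 fold change of -1.91 ± 0.0631, and in NB1691 from 52.0 and 53.4 CPM to 32.6 and 30.6 CPM, a log2 fold change of -0.74 ± 0.0582. In CHLA20 the treated level was 59.6% of control (log2 fold change -0.75 ± 0.0559) and in CHLA15 72.7% (-0.46 ± 0.0557), the farthest fall of any member in each CHLA line. CDC25A fell from 73.6 and 68.3 CPM to 16.8 and 20.0 CPM in NB1643 (log2 fold change -1.95 ± 0.0815). In NB1691 it started from 12.6 and 12.9 CPM and fell to 5.14 and 4.52 CPM, a log2 fold change of -1.40 ± 0.101. It was not called in CHLA15 (edgeR adjusted p = 0.738) and fell by 0.45 ± 0.0752 on the log2 scale in CHLA20.

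CCNA2 had the farthest fall of the members in NB1643, from 74.9 and 91.1 CPM to 4.42 and 4.82 CPM (-4.17 ± 0.0943 in log2 units, edgeR adjusted p = 1.12e-16). In NB1691 it fell from 88.5 and 87.4 CPM to 10.7 and 10.8 CPM, a log2 fold change of -3.03 ± 0.0849. In CHLA15 and CHLA20 its log2 fold changes were -0.32 ± 0.0725 and -0.62 ± 0.0728, both called, and the arms of each line did not overlap.

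CCNB1 fell from 123 and 141 CPM to 15.9 and 17.0 CPM in NB1643 and from 133 and 138 CPM to 20.2 and 19.6 CPM in NB1691. These are log2 fold changes of -3.00 ± 0.0810 and -2.77 ± 0.0795. CCNB2 had nearly the same fold changes, -3.02 ± 0.0846 and -2.82 ± 0.0917, although its control level in NB1691, at 36.4 and 37.4 CPM, was below the 69.5 and 80.8 CPM of NB1643. CDK1 and CDC25C fell farthest in NB1691, and their order changed without palbociclib replicate 1. CDK1 went from 82.3 and 79.3 CPM to 7.48 and 6.20 CPM, a log2 fold change of -3.55 ± 0.107. In NB1643 it went from 125 and 155 CPM to 14.0 and 15.2 CPM (log2 fold change -3.27 ± 0.0994). In CHLA15, CDK1 was at 164 and 171 CPM against 142 and 144 CPM, a log2 difference of -0.22 ± 0.0857 that was not called (edgeR adjusted p = 0.0564) and was called in 5 of 14 alternatives, with adjusted p from 0.00270 to 0.229. CCNB1 in the same line, at -0.25 ± 0.0709, was called (edgeR adjusted p = 0.0130), but not without control replicate 1, control replicate 2 or palbociclib replicate 1 (adjusted p 0.0539 to 0.0713).

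The CDC25 phosphatases did not move as a group. CDC25C fell from 22.2 and 22.4 CPM to 2.27 and 3.12 CPM in NB1643 and from 7.14 and 7.51 CPM to 0.895 and 0.442 CPM in NB1691, where the treated libraries held 54 and 22 counts and the log2 fold change was -3.41 ± 0.171 (-4.04 to -3.03 when 1 library was left out). CDC25B went from 88.3 and 85.7 CPM to 48.0 and 45.4 CPM in NB1643, a log2 fold change of -0.90 ± 0.0516, and from 118 and 123 CPM to 86.2 and 85.7 CPM in NB1691, -0.49 ± 0.0502. These were the smallest falls of any called member in either line. In CHLA20, CDC25B was at 165 and 173 CPM in controls and at 166 and 169 CPM with palbociclib, which overlap, and its log2 difference was -0.01 with a 95% interval of -0.12 to 0.09.

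**Figure D3:**
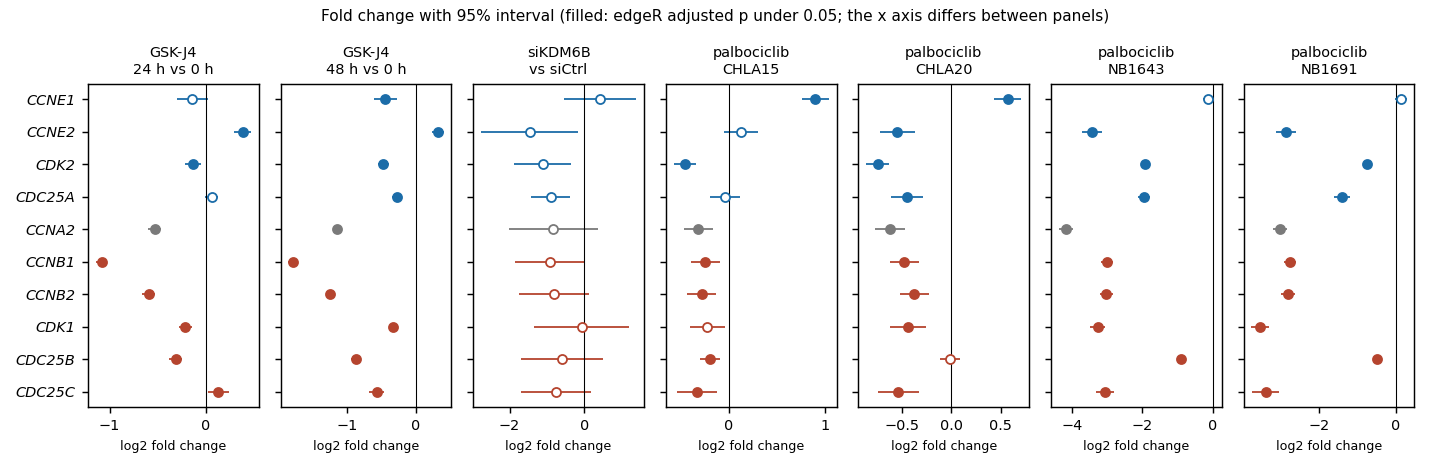
Log2 fold change of each member against its control, with the 95% interval of edgeR as bars. Blue marks G1/S, grey CCNA2 and red G2/M members, filled points have an adjusted p under 0.05, and the x axes differ between panels. CCNE1 lies to the right of the other members in all 4 palbociclib panels.

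For every member the change with palbociclib differed between at least some of the 4 lines, whose pairs also differed in dose. The edgeR interaction of palbociclib and line was called for 10 of 10 members, where it was called for 38% of all genes, and for 10 of 10 without NB1691 (23.2% of all genes). Lines given the same dose can be compared directly, in a comparison added after the first results were seen. At 300 nM, the fold change of CCNE2 was lower in CHLA20 than in CHLA15 by 0.67 on the log2 scale (difference -0.67 ± 0.118, edgeR adjusted p = 0.00726), and it was 1 of 446 genes called there (2.02% of all genes). The call of CCNE2 was lost without CHLA20 palbociclib replicate 2, where the difference was -0.66. Without CHLA20 control replicate 1 more members were called, as were more of all genes. No other member was called in that comparison, and the difference for CCNE1 was -0.33 with a 95% interval of -0.52 to -0.13 (edgeR adjusted p = 0.0777). At 3 uM, 4 members fell less in NB1691 than in NB1643, where 22% of all genes differed in either direction. These were CDK2, with a difference of 1.18 ± 0.0855 (edgeR adjusted p = 1.89e-08), CCNA2 (1.14 ± 0.127), CDC25A (0.56 ± 0.131) and CDC25B (0.41 ± 0.0717). The call of CDC25A was lost without NB1691 palbociclib replicate 1, where the difference was 0.45. Without NB1643 control replicate 1 more members were called, as were more of all genes. CCNB1, CCNB2, CDK1 and CDC25C were not called, and the 95% interval of the difference for CCNB2 was -0.06 to 0.47.

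Untreated levels also differed between the 4 lines for 10 of 10 members, and 91.2% of all genes did. The widest spread was that of CDC25A, with control libraries between 67.8 and 85.7 CPM in CHLA15, CHLA20 and NB1643 and at 12.6 and 12.9 CPM in NB1691. The narrowest was that of CCNB1, from 123 CPM in NB1643 to 195 CPM in CHLA20, where the libraries of NB1643 and NB1691 overlapped. CCNE1 stood at 15.4 to 21.4 CPM in the CHLA controls and at 8.27 to 10.3 CPM in the NB controls. Without NB1691 all 10 members still differed, as did 72.2% of all genes.

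Subtracting the mean log2 CPM of the 4 G1/S members from that of the 5 G2/M members gives a balance of the 2 groups in each library, reported as a description. In BE2C cells it was 1.66 and 1.64 at 0 h, 1.19 and 1.20 at 24 h and 0.90 and 0.91 at 48 h with GSK-J4, and the times did not overlap. The balance changed by -0.46 ± 0.0132 (SE) at 24 h and by -0.75 ± 0.0117 at 48 h. At 24 h the G1/S mean differed from 0 h by 0.04 and the G2/M mean by -0.42, and at 48 h by -0.22 and -0.97. With medians over the members the balance changed by -0.72 and -1.16. The adrenergic marker HAND2 went from 455.7 and 456.3 CPM at 0 h to 333.4 and 313.8 CPM at 48 h and DBH from 177 and 186 CPM to 171 and 165 CPM, and the part of such changes was not tested. In the siRNA experiment it was 1.58 and 1.62 with siCtrl, 1.61 with N1, 2.36 with N2 and 1.06 with N33. The siKDM6B libraries lay on both sides of the controls, with a mean difference of 0.08 ± 0.377 that was 0.42 with medians over the members. Leaving out N2 or N33 moved it to -0.26 and 0.39.

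With palbociclib the balance was lower in treated than in control libraries of each line, by amounts that differed. In CHLA20 it went from 1.27 and 1.26 to 1.18 and 1.21, a difference of -0.07 ± 0.0181 that became -0.32 with medians over the members and -0.12 with CCNA2 as a G2/M member. In CHLA15 it went from 1.51 and 1.53 to 1.13 and 1.12 (-0.39 ± 0.0110), where the G1/S mean differed by 0.13 and the G2/M mean by -0.26. In NB1643 it went from 1.69 and 1.80 to 0.90 and 0.99 (-0.80 ± 0.0700), and in NB1691 from 1.64 and 1.70 to 0.34 and 0.17 (-1.41 ± 0.0892). With medians over the members the differences in these lines were -1.48 and -2.92. The summed markers of other cell types were at 154 to 163 CPM in CHLA15 controls and 69.4 to 75.2 CPM with palbociclib, and at 139 to 158 CPM and 81.9 to 83.3 CPM in CHLA20, and their part in these differences was not tested. The G2/M mean differed from control by nearly the same amount in the NB lines, -2.64 in NB1643 and -2.62 in NB1691 on the log2 scale, and the G1/S mean by -1.85 and -1.21. The G1/S mean holds CCNE1, whose values differed from those of the other 3 G1/S members in both NB lines.

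**Figure D4:**
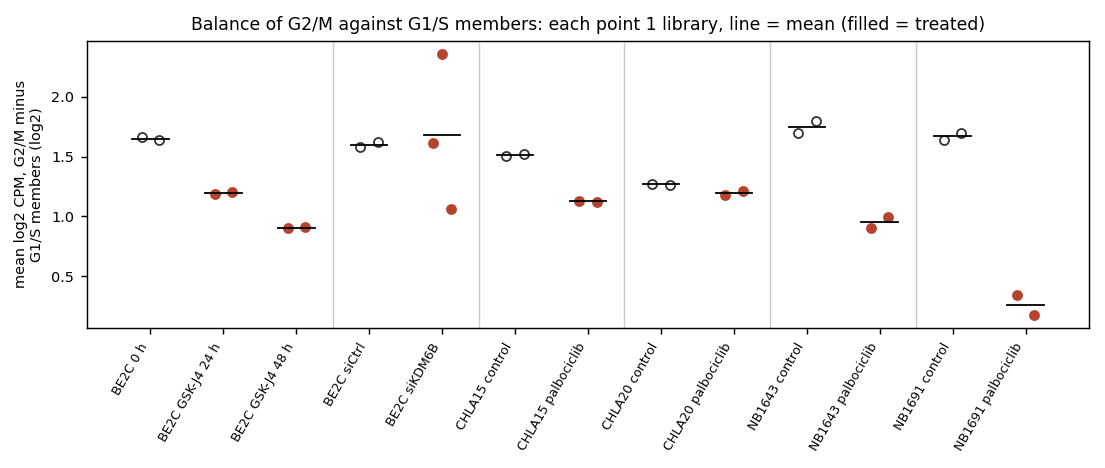
Mean log2 CPM of the 5 G2/M members minus that of the 4 G1/S members in each of the 27 libraries, with open points for untreated or control and filled points for treated libraries and a line at each mean. The 2 NB1691 palbociclib libraries are lowest, at 0.34 and 0.17, and the 3 siKDM6B libraries spread from 1.06 to 2.36.

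Lists of 20 direct and 17 transcription regulators give the surroundings of the pathway. Of 20 direct regulators (CDK inhibitors, the CDK-activating kinase, inhibitory kinases and parts of the protein degradation machinery), 12 fell and 5 rose after 24 h of GSK-J4, with a median log2 fold change of -0.13 against 0.01 over all genes, and 14 fell and 5 rose after 48 h (median -0.31 against 0.05). CDKN1A, which encodes the CDK inhibitor p21, rose from 8.05 ± 0.283 to 44.9 ± 2.82 CPM at 24 h (SD, n = 2, log2 fold change 2.48 ± 0.0651). CDC20, an activator of the ubiquitin ligase that degrades B cyclins, fell from 89.6 ± 1.89 to 38.8 ± 1.19 and then 20.1 ± 0.234 CPM. Between 24 and 48 h, 11 direct regulators fell and 4 rose (median -0.12), and CDKN1C, which encodes p57, rose from 0.614 ± 0.0641 to 1.43 ± 0.185 CPM. In the siRNA experiment none of the 20 was called (median -0.26). Over all genes, 28% were called lower and 27.3% higher at 24 h, and 34.4% and 37.1% at 48 h. Between 24 and 48 h these shares were 28% and 25.9%, and in the siRNA experiment both were 0%.

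With palbociclib, 9 direct regulators fell and 2 rose in CHLA15, 12 fell in CHLA20, 16 fell and 1 rose in NB1643, and 14 fell and 3 rose in NB1691, with median log2 fold changes of -0.16, -0.32, -0.62 and -0.73. The median over all genes lay between 0.00 and 0.02 in the 4 lines. In the same order, 15.6%, 15.9%, 19.7% and 15.5% of all genes were called lower and 14.2%, 13.7%, 20.3% and 17.4% higher. In CHLA15 CDKN1C fell from 16.5 ± 0.387 to 8.02 ± 1.04 CPM, and in NB1691 CDC20 fell from 72.3 ± 1.01 to 5.71 ± 0.913 CPM. Of 17 transcription regulators (E2F factors, pocket proteins, MuvB subunits, MYBL2 and FOXM1), 8, 12, 15 and 12 fell in CHLA15, CHLA20, NB1643 and NB1691, and 1 rose, in CHLA15. The atypical repressor genes E2F7 and E2F8 had the farthest falls among those named by rule. E2F8 went from 13.4 ± 0.160 to 0.141 ± 0.00380 CPM in NB1643 and from 10.9 ± 0.208 to 0.668 ± 0.0640 CPM in NB1691, and from 21.8 ± 1.15 to 10.0 ± 0.101 CPM in CHLA20. E2F7 went from 18.3 ± 0.626 to 8.85 ± 0.819 CPM in CHLA15. With GSK-J4, 7 transcription regulators fell and 5 rose at 24 h, where 28% of all genes were called lower and 27.3% higher. At 48 h 10 fell and 3 rose, where 34.4% of all genes were called lower and 37.1% higher.

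The S and G2/M phase genes of the Seurat package, without the members, gave wider lists to set beside the balance. At 24 h of GSK-J4, 46 of 49 tested G2/M genes fell and 1 rose, with a median log2 fold change of -0.48. Of 42 S genes 16 fell and 16 rose (median -0.03), where 28% of all genes were called lower and 27.3% higher. At 48 h the medians were -0.92 and -0.29. With palbociclib the G2/M and S medians were -0.33 and -0.18 in CHLA15, -0.49 and -0.52 in CHLA20, -2.65 and -1.89 in NB1643 and -2.68 and -1.34 in NB1691. In CHLA20, the line with the smallest change of the balance, the 2 medians were nearly equal. In the siRNA experiment no gene of either list was called, and the medians were -0.77 and -0.78. The related genes CCNA1, CCNB3 and CDK3 were mostly low, and 1 of the 2 that passed the filter fell with GSK-J4 at 24 h.

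Over the 16 palbociclib libraries, which share lines and arms, the genes most like CCNB1 in log2 CPM were HMMR, KIF20A and TPX2, with Pearson's r of 0.997, 0.997 and 0.992 among 15088 genes. Those most like CCNE1 were PDE7B, SPRY2 and FXR2, with r of 0.985, 0.966 and 0.965. Between members r was highest for CCNA2 and CCNB1, at 0.991, and lowest for CCNE1 and CDC25C, at 0.449. CCNE2 correlated with CCNB1 at 0.978 and with CCNE1, the other E cyclin, at 0.689. These values describe differences between lines and arms together.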

How the data were processed

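The authors deposited 38 tables of counts per gene symbol. Per the study's methods and the submitters' processing notes, paired-end reads were aligned to GRCh37 (STAR 2.5.3a) and counted with htseq-count; the methods name Gencode vM5, a mouse release, while the symbols are human. The summary lines of htseq-count (no feature, 5.10% to 16.8%, and others) were left out. The 22 BE2C files were taken as 11 pairs of 1 library each and summed. Labels of the GSK-J4 and siCtrl files number the library and then, as read here, the file. Those of the siKDM6B files carry 1 number, which was read as the file, so 1 library per siRNA is an inference. Files of a pair differed per gene by 1.48 to 1.65 on a chi-square scale, against 1.89 to 171 between libraries of 1 arm. Depth was 36186567 to 93011010 counts per library, and 3 counts equal at most 0.0829 CPM; intervals cover the spread between libraries only.

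Each experiment was fitted separately in edgeR 4.0.16 (TMM, filterByExpr, quasi-likelihood test, Benjamini-Hochberg adjustment, R 4.3.3), with all its groups sharing 1 estimate of spread and the 3 KDM6B siRNAs as 1 arm. The scripts were tested on simulated data. Log2 CPM used a prior count of 2. Exonic lengths are from GENCODE v44lift37. Alternatives were DESeq2 1.42.0, limma-voom (the test of the study), library totals, upper quartiles, 2 other filters, single files, a joint BE2C fit, a replicate block and leaving out each library. The members and lists were chosen with earlier results of these data known. Named regulators are the 2 with the largest absolute log2 fold change per comparison among called genes at 1 CPM or more whose arms do not overlap, and the 3 genes with the highest Pearson correlation with CCNE1 and with CCNB1 over the palbociclib libraries are named. Differences of the palbociclib effect between lines at 1 dose were added after seeing the data. Of the cell type markers, 1 gene and the sums that hold it are not reported here.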

Additional observations from a re-analysis of the deposited data

Results flagged for a closer look

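The response to palbociclib differed between at least some of the 4 lines for each of the 10 members, by the edgeR interaction of treatment and line. The adjusted p was 8.5e-07 for CCNE1, whose log2 fold changes spanned 1.03 between lines, from -0.13 in NB1643 to 0.90 in CHLA15. It was 2.77e-12 for CCNE2, 7.14e-10 for CDK2 and 4.86e-10 for CDC25A, with spans of 3.56, 1.46 and 1.91. CCNA2 had the widest span, 3.85, and an adjusted p of 1.42e-14. Among the G2/M members the adjusted p was 1e-13 for CCNB1, 1.68e-13 for CCNB2, 1.67e-13 for CDK1, 8.62e-08 for CDC25B and 5.05e-11 for CDC25C. The dose cannot be told apart from the pair of lines, and 38% of all genes were called in the same test. CCNE1, CCNB1, CCNB2, CDK1 and CDC25C were called in neither comparison of lines given the same dose.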

How the results depend on the processing

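With a required log2 fold change above 0.5, the members called numbered 3 and 5 at 24 and 48 h of GSK-J4, 5 between these times, 1 in CHLA15 and 5 in CHLA20, against 21.7%, 42.2%, 17.5%, 11.7% and 12% of all genes. In 1 fit of both BE2C experiments they numbered 0, 2 and 0 with GSK-J4 and 2 (CDK2 and CDC25A) with siKDM6B. The shares of all genes were 2%, 18.2%, 0.208% and 3.69%. With each file as a sample, 4 were called with siKDM6B, against 15.4% of all genes. The files of each KDM6B siRNA were taken as 1 library, and on that reading the fit understates the spread. Over all genes, siKDM6B gave 0 calls in edgeR, 164 in DESeq2, 84 with no filter, 690 in the joint fit and 2354 with each file as a sample. Between CHLA20 and CHLA15, DESeq2 called 4 members (3.75% of all genes), no filter 3 (2.3%) and 10 counts in every library 3 (3.59%). Leaving out each library gave 7 to 8 calls at 24 h, 4 to 6 in CHLA15 (4 without palbociclib replicate 1), 0 to 6 between CHLA20 and CHLA15 (0 without CHLA20 palbociclib replicate 2) and 4 to 7 between NB1691 and NB1643 (7 without NB1643 control replicate 1). All other leave-one-out counts were unchanged.

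As medians over members the balance changed by -0.72, -1.16 and -0.45 in the 3 GSK-J4 comparisons and by -0.56, -0.32, -1.48 and -2.92 in CHLA15, CHLA20, NB1643 and NB1691. With CCNA2 as a G2/M member it changed by -0.48, -0.77 and -0.30 with GSK-J4, by -0.12 in CHLA20 and by -1.05 in NB1643.

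The sign turned, with no call, for CCNE2 between 24 and 48 h under upper quartiles (8.19e-05, edgeR adjusted p = 0.999). Leaving out each library gave CDK1 with siKDM6B -0.54 to 0.32, CDC25B in CHLA20 -0.067 to 0.0074, and CDC25C between NB1691 and NB1643 -0.98 to 0.039. In CHLA15, CDC25C was not called in any of the 4 fits that leave out a library of that line. Upper quartiles moved the median of all genes at 48 h by 0.110.

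A replicate block called 8 members in CHLA15 and changed no other count. Same-numbered libraries deviated with correlations of -0.063 to 0.048, so the numbers were not taken as pairs. In the siRNA experiment no paired analysis was possible because the groups share no pairs. The cause of these changes was not tested.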
